A study of Mus musculus with 23 samples.

Results

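Mechanosensitive ion channels are membrane proteins whose pore opens, or is thought to open, when the membrane or its attachments are pulled. The 10 genes described here were chosen by name: Piezo1 and Piezo2, the TRP channels Trpv2, Trpv4, Trpc1 and Trpm7, the 3 TMEM63 genes Tmem63a, Tmem63b and Tmem63c, and the polycystin Pkd2. They were found by Ensembl identifier among the 55487 gene IDs of the count tables, and all 10 had an entry.

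The study asked how the RNA of axons and cell bodies responds to a pulling force. Hippocampal cells of C57Bl/6 mouse pups at postnatal day 1 were seeded on the soma side of microfluidic chambers, whose axonal side carried a denser coating of poly-D-lysine and laminin. Magnetic nanoparticles (MNP) at 5 µg/ml were added to the medium of every culture, controls included. The treated cultures then lay in a magnetic field gradient of 50 T/m from day in vitro (DIV) 1 to DIV 6, while the gradient of the control cultures was null. Lysates of the 2 sides gave 4 groups: control soma (6 libraries), treated soma (6), control axon (5) and treated axon (6). The labels call the axonal samples a pure axonal preparation and the soma samples total cell culture, so a soma library holds the RNA of every cell on that side. Nothing in the labels says which libraries came from separate animals or cultures, so p-values measure only the spread between these libraries, which may be technical.

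PIEZO channels are very large proteins that assemble around a curved membrane dome, let calcium and other cations in when the membrane is stretched, and are known for touch and for the sensing of blood flow. Several TRP channels and polycystin-2 carry calcium and have been tied to stretch, swelling or shear, although how directly force opens them is debated. TMEM63 proteins are relatives of the plant OSCA channels, which open with osmotic and mechanical stress. In neurons, calcium entry of this kind has been linked to the speed and direction of axon growth.

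Soma libraries held between 20.5 and 30.7 M counts (M, 1000000) and at least 1 count for 22452 to 24575 genes, and axonal libraries held between 16.4 and 43 M counts for 4263 to 10242 genes. Levels are given as counts per 1000000 counts of the library (CPM), and a floor of 3 counts, which lay between 0.0697 and 0.183 CPM, was used for detection. The 10 neuronal markers summed to 7730 to 9270 CPM in control somata and 7450 to 8010 CPM in treated somata. In axons the same markers summed to 2890 to 6150 CPM (control) and 3290 to 5530 CPM (treated). The 10 astrocyte markers were above the floor in every soma library, and their sum was 4840 to 26000 CPM in control axons and 4970 to 20700 CPM in treated axons, against 5300 to 14400 CPM and 5550 to 11700 CPM in the matching somata. Astrocyte marker RNA thus reached at least the soma level in some axonal libraries. The 10 microglial markers summed to 50.7 to 102 CPM in control somata and 39.1 to 53.0 CPM in treated somata. In axons, 8 of the microglial markers (control) and 4 (treated), Cx3cr1, P2ry12, Trem2 and Itgam among both, were at or under the floor in every library, yet the microglial sum ran from 0 to 494 CPM in control axons and from 0 to 736 CPM in treated axons. The vascular and fibroblast markers summed to 255 to 406 CPM in control and 307 to 393 CPM in treated somata, and to 102 to 848 CPM in control and 275 to 2340 CPM in treated axons. The part of these cell types in the axonal values of the channels was not tested. In bulk samples, fewer cells of a type and less RNA per cell cannot be told apart.

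The promoters of the channels fell into CpG-rich and CpG-poor ones, and the pair below is shown because Trpv2 and Trpv4 belong to the same subfamily and stood far apart in level. RefSeq start sites (GRCm38.p6) were matched for 9 of the 10 genes, with 12 entries; Piezo2 had none. The 250 bases upstream of the start are printed 5′ to 3′ on the gene's strand, with each CpG in capitals, for Trpv2 at chr11:62574236-62574485 (plus strand) and Trpv4 at chr5:114658422-114658671 (minus strand).
Trpv2: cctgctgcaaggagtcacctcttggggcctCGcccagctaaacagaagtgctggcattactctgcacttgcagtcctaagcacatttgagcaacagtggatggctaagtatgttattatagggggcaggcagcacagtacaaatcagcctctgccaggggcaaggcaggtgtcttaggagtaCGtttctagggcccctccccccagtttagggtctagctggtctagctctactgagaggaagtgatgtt
Trpv4: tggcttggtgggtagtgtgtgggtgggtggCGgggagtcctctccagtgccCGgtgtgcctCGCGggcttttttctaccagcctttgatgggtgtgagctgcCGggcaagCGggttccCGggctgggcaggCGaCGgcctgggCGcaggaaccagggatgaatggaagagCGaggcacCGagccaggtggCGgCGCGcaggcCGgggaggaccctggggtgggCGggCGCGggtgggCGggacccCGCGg
The Trpv2 stretch held 2 CpG and the Trpv4 stretch 22. Another 2 Trpv2 start sites had 2 and 5. Over all 32851 RefSeq promoters of this length the median was 6 CpG. Tmem63b (31), Piezo1 (26), Trpm7 (26), Tmem63a (23) and Trpc1 (17) lay far above that median, and Pkd2 (4) and the 2 Tmem63c sites (4 and 5) below it. The stretches of Tmem63b, Tmem63a, Trpc1, Pkd2 and the other 2 Trpv2 sites overlapped annotated exons, so they were not wholly upstream of transcribed sequence. CpG number did not order the channels by level, since Trpv4, with 22, was among the scarcest and Trpv2, with 2, the second most abundant per length. The GC-box letters GGGCGG, searched on both strands, were present in 5 of the 12 entries (those of Piezo1, Trpv4, Trpc1, Tmem63a and Tmem63b), against 32.7% of all promoters. CCAAT was present in Tmem63a alone (33.8% of all promoters), and TATAAA in Piezo1 and in 1 of the 2 Tmem63c sites (12.4%). A match of letters is a description and not a binding site.

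The 10 genes lie on 9 chromosomes of mm10 (GRCm38), and their annotated transcripts differ widely in length, which matters for counts. Piezo1 (ENSMUSG00000014444) spans chr8:122481698-122551329 on the minus strand, with a longest transcript of 8.22 kb, and Piezo2 (ENSMUSG00000041482) spans chr18:63010213-63387183, also on the minus strand, with 10.72 kb. Trpv2 (ENSMUSG00000018507, chr11:62574486-62600515, plus strand) has 3.67 kb and Trpv4 (ENSMUSG00000014158, chr5:114622152-114658421, minus strand) 3.23 kb. Trpc1 (ENSMUSG00000032839, chr9:95705082-95750375, minus strand) has 4.56 kb and Trpm7 (ENSMUSG00000027365, chr2:126791565-126876230, minus strand) 7.11 kb. Tmem63a (ENSMUSG00000026519, chr1:180942344-180975112, plus strand) has 3.31 kb, Tmem63b (ENSMUSG00000036026, chr17:45660171-45686905, minus strand) 3.28 kb and Tmem63c (ENSMUSG00000034145, chr12:87021340-87090043, plus strand) 3.58 kb. Pkd2 (ENSMUSG00000034462) spans chr5:104459450-104505819 on the plus strand, with 5.22 kb. Counts are summed over the exons of a gene. Of the exon bases of Piezo1, 24.6% overlap Ctu2 on the other strand, as do 7.73% of Tmem63b (Gm16172 and Mrpl14) and 3.50% of Tmem63a (2210411M09Rik). Ambiguous reads were set apart in the tables and the strand setting is not given in the sources used here, so the counts of these 3 genes are uncertain to that extent.

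In control somata the most abundant of these channels per length was Tmem63b, at 43.8 ± 2.65 CPM per kb of its longest transcript (SD, n = 6). Trpv2 followed at 12 ± 0.940 CPM per kb. The 2 levels did not overlap between libraries. Trpm7 (5.38 ± 0.365) and Tmem63c (5.16 ± 0.772 CPM per kb) came next and overlapped each other, but not Trpv2 above them. Tmem63a (2.24 ± 0.804), Pkd2 (1.16 ± 0.380), Trpc1 (1.10 ± 0.298) and Piezo1 (0.596 ± 0.137 CPM per kb) formed a run in which each overlapped its neighbour. Trpv4 (0.0933 ± 0.0678) and Piezo2 (0.0453 ± 0.0191 CPM per kb) stood below, apart from Piezo1 and overlapping each other. Among the 32772 genes with a count in somata, Tmem63b was at percentile 94.2 of the level per length, Trpv2 at 84.4, Piezo1 at 59.8, Trpv4 at 39.9 and Piezo2 at 31.5. Within families, Tmem63b was 19.6-fold above Tmem63a and 8.49-fold above Tmem63c per length, Piezo1 13.2-fold above Piezo2 and Trpv2 129-fold above Trpv4.

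**Figure D1:**
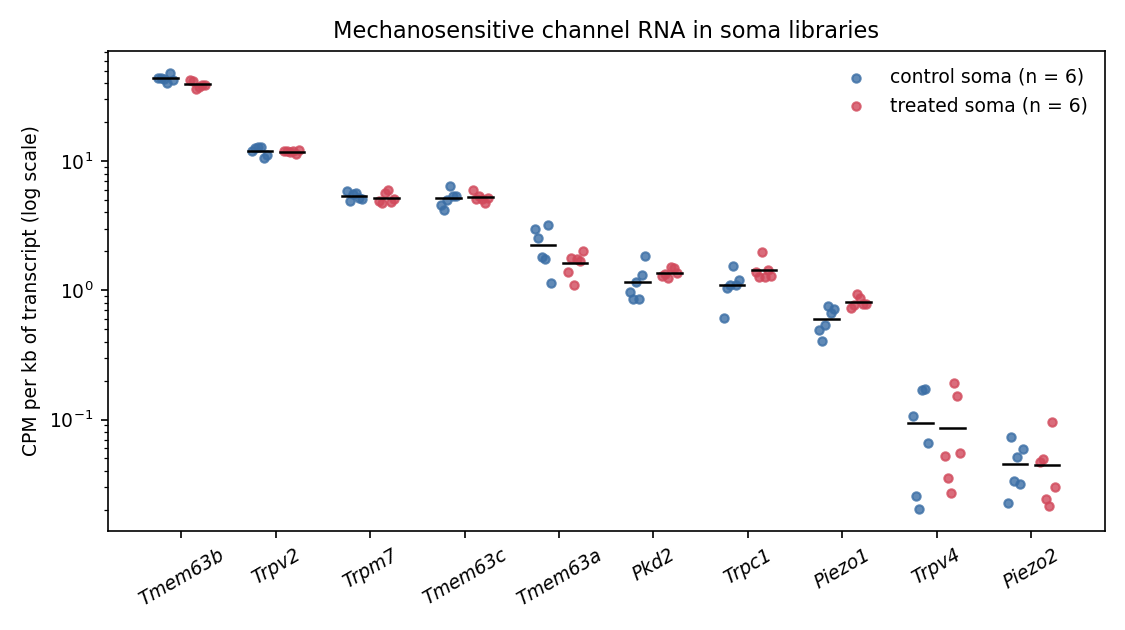
Level of each channel gene in the soma libraries, in CPM per kilobase of longest transcript on a log scale, with 1 point per library for control and treated cultures (6 each) and the group mean as a bar. Tmem63b lies highest, at 43.8 CPM per kb in controls, and Trpv4 and Piezo2 lie lowest, both under 0.1 CPM per kb on average.

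The order in treated somata was nearly the same. Tmem63b (39.3 CPM per kb) and Trpv2 (11.8) led again, followed by Tmem63c (5.25) and Trpm7 (5.19), then Tmem63a (1.62), Trpc1 (1.44), Pkd2 (1.37), Piezo1 (0.811), Trpv4 (0.0854) and Piezo2 (0.0445 CPM per kb). Tmem63c and Trpm7 had changed places, as had Trpc1 and Pkd2, but both pairs overlapped between libraries.

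The first comparison asked whether the field gradient changed channel RNA on the soma side. By edgeR's quasi-likelihood test, none of the 9 channel genes tested changed at an adjusted p of 0.05, while 3929 of all 15632 genes tested did (25.1%; 11.2% higher and 13.9% lower). Trpv4 was too scarce to be tested. At an unadjusted p under 0.05 by edgeR there were 2 of the 9, Piezo1 and Tmem63b, a smaller share than the 6155 of all 15632 genes tested. DESeq2 called 1 of the 9 and limma voom 2, and the calls of these tools over all genes in somata are not given here. For all 10 genes the CPM of the control and treated libraries overlapped, where 4.11% of all genes tested had ranges that did not. The median log2 fold change (treated over control) of the 9 was -0.06, against -0.03 over all genes tested.

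Piezo1, the broadly expressed PIEZO channel, had 4.06, 3.35, 4.43, 6.25, 5.44 and 5.86 CPM in control somata 1 to 6. In treated somata 1, 2, 4, 5, 6 and 8 it had 6.04, 6.31, 7.63, 7.16, 6.42 and 6.43 CPM. Control library 4 was the only control library that reached into the treated range, by lying above treated library 1. The means were 4.90 ± 1.13 and 6.66 ± 0.601 CPM (SD, n = 6 each). The log2 fold change was 0.41 (SE 0.17, 95% interval 0.02 to 0.79) with an adjusted p of 0.0921 by edgeR. The result sat close to the threshold, since without control library 4 it passed (0.47, adjusted p = 0.0423), and with limma voom too (0.43, adjusted p = 0.0486). The soma libraries also fell into 2 sets by the Y-linked gene Eif2s3y, with 24.7 to 28.7 CPM in control libraries 1, 2 and 3 and treated libraries 1, 2 and 8, and 5.39 to 13.2 CPM in the other 6. Piezo1 followed these sets in controls, at 3.35 to 4.43 CPM in the high set and 5.44 to 6.25 CPM in the low set. In treated libraries it was 6.04 to 6.43 CPM in the high set and 6.42 to 7.63 CPM in the low set. Within the high set alone the log2 fold change was 0.66 (adjusted p = 0.0386 by edgeR, n = 3 each), and within the low set alone 0.25 (adjusted p = 0.505); the difference between the sets was not tested. With the set as a covariate it was 0.43 (adjusted p = 0.0307 by edgeR). Piezo1 passed under 4 of 26 alternatives in all, and did not with DESeq2 or with replicate number as a block.

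Piezo2, the channel of touch receptors and proprioceptors, was near the detection floor. It ranged from 0.244 through a median of 0.455 to 0.785 CPM in control somata and from 0.228 through 0.410 to 1.03 CPM in treated somata. The log2 fold change was -0.08 (SE 0.43, 95% interval -1.03 to 0.87, adjusted p = 0.907 by edgeR). An interval this wide does not show that Piezo2 was equal in both groups.

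Of the TRP channels, Trpv2, a calcium-permeable channel described in developing neurons, varied least among the treated libraries, with a coefficient of variation of 2.52%, while Trpm7 varied least among the controls (6.79%, against 7.83% for Trpv2). Its CPM was 39.0, 45.0 and 47.4 (lowest, median and highest) in control somata and 41.6, 43.8 and 44.7 in treated somata. The log2 fold change of -0.06 (SE 0.08, adjusted p = 0.589 by edgeR) had a 95% interval of -0.23 to 0.11. Trpv4, a channel opened by swelling and warmth, was above the floor in 4 of 6 control and 4 of 6 treated somata, with 0.0657, 0.276 and 0.556 CPM in controls and 0.0871, 0.172 and 0.618 CPM in treated cultures. At this level a difference was not detectable.

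Trpc1, a subunit of receptor- and store-operated cation channels, had 2.79, 5.02 and 7.01 CPM in control somata and 5.81, 6.11 and 9.02 CPM in treated somata. The highest value belonged to treated library 4 and the lowest to control library 1. The log2 fold change was 0.35 (SE 0.20, 95% interval -0.09 to 0.80, adjusted p = 0.203 by edgeR). Trpm7, a channel fused to a protein kinase that carries magnesium, zinc and calcium, had 35.2, 38.1 and 41.5 CPM in control somata and 33.4, 35.5 and 42.5 CPM in treated somata. Its log2 fold change was -0.09 (SE 0.09, 95% interval -0.30 to 0.11, adjusted p = 0.469 by edgeR).

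Tmem63b, linked to osmotic sensing, had 144, 144, 143, 132, 159 and 140 CPM in control somata 1 to 6. In treated somata 1, 2, 4, 5, 6 and 8 it had 139, 137, 119, 122, 128 and 128 CPM. Most treated values lay under most control values, with control library 4 inside the treated range. The log2 fold change of -0.20 (SE 0.07, 95% interval -0.36 to -0.04) had an adjusted p of 0.0543 by edgeR. DESeq2 (-0.20, adjusted p = 0.0326), limma voom (-0.20, adjusted p = 0.0278) and edgeR without control library 4 (-0.24, adjusted p = 0.00968) passed the threshold.

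Tmem63a had 3.75, 7.18 and 10.6 CPM in control somata and 3.66, 5.68 and 6.64 CPM in treated somata. The control libraries spread over more than the treated range. The log2 fold change was -0.50 (SE 0.24, 95% interval -1.03 to 0.03, adjusted p = 0.127 by edgeR), and without control library 6 it was -0.64 with an adjusted p of 0.0470. Tmem63c, the remaining family member, had 15.0, 18.6 and 23.0 CPM against 17.0, 18.4 and 21.5 CPM, a log2 fold change of -0.01 (SE 0.11, 95% interval -0.27 to 0.24, adjusted p = 0.943 by edgeR). Pkd2, a cation channel of cilia and the endoplasmic reticulum, had 4.43, 5.52 and 9.65 CPM in control somata and 6.54, 7.01 and 7.87 CPM in treated somata. Its log2 fold change was 0.20 (SE 0.19, 95% interval -0.23 to 0.62, adjusted p = 0.464 by edgeR).

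**Figure D2:**
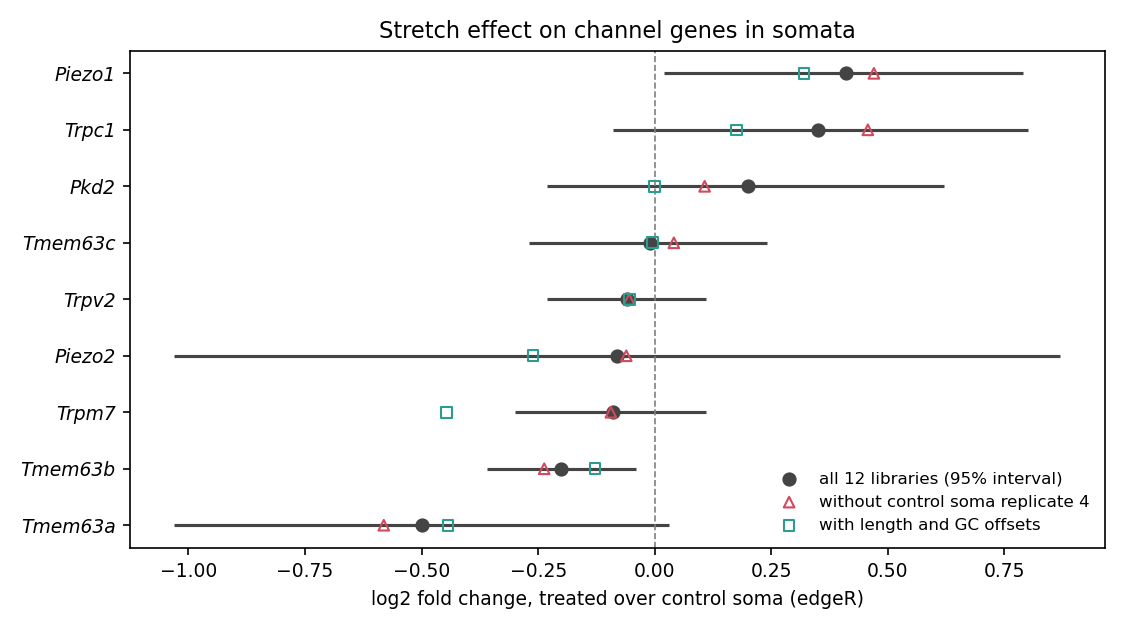
Log2 fold change of treated over control somata for the 9 channel genes that were tested, as black points with 95% intervals, beside the values without control soma replicate 4 (triangles) and with length and GC offsets (squares). The dashed line marks no change. The intervals of Piezo1 (0.02 to 0.79) and Tmem63b (-0.36 to -0.04) do not reach 0, yet neither gene passed the adjusted threshold.

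**Figure D3:**
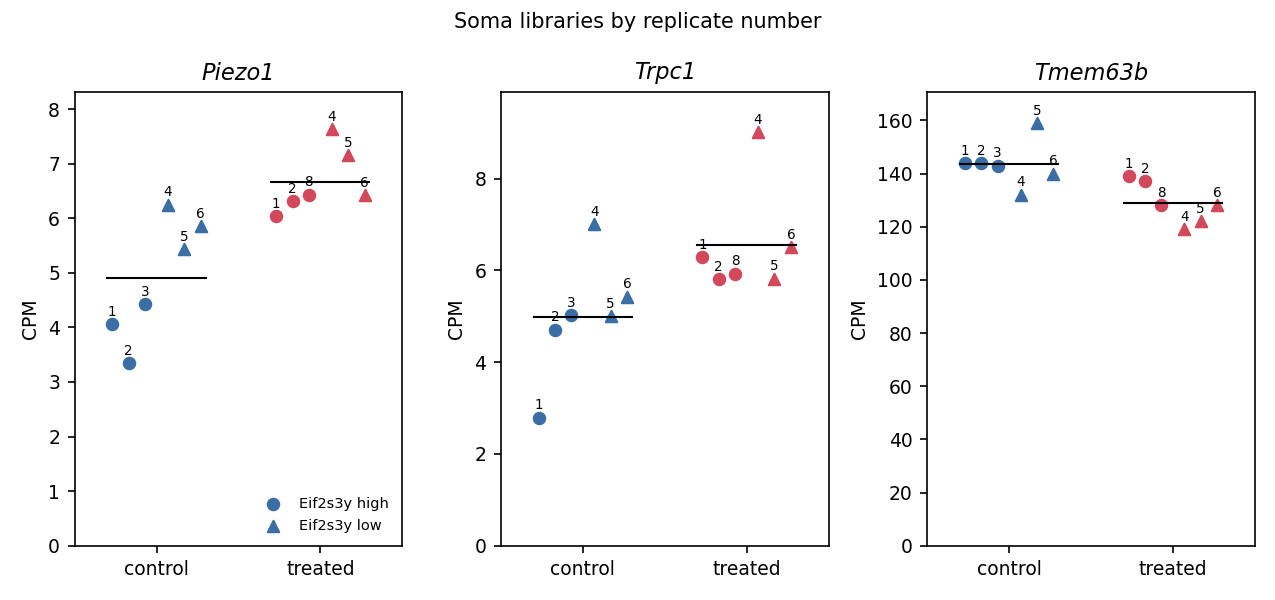
CPM of Piezo1, Trpc1 and Tmem63b in each soma library, numbered by replicate, with circles for high and triangles for low Eif2s3y, blue for control and red for treated, and the group mean as a line; each axis starts at 0. Control library 4 lies inside the treated range in all 3 panels, and Piezo1 is lower in the high-Eif2s3y controls (3.35 to 4.43 CPM).

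Log2 fold changes in somata moved with transcript length across all genes (Spearman's rho 0.457 over 15619 genes, which are not independent replicates). The median was -0.32 for genes with transcripts under 2 kb, -0.07 for 2 to 4 kb, 0.19 for 4 to 6 kb, 0.25 for 6 to 8 kb and 0.22 over 8 kb. Piezo2, at 10.72 kb, Piezo1, at 8.22 kb, and Trpm7, at 7.11 kb, were in the long classes. Trpc1 (4.56 kb) and Pkd2 (5.22 kb) were in the class of 4 to 6 kb, whereas the TRPV and TMEM63 transcripts were between 3.23 and 3.67 kb. After an offset for length and GC content Piezo1 was at 0.32 (adjusted p = 0.166 by edgeR) and Tmem63b at -0.13 (0.179), and Trpm7 passed the threshold at -0.45 (0.0109). The part of length in these values was otherwise not tested. Marker sums also differed between control and treated somata, with ranges that overlapped in every list. The microglial median was 61.8 CPM in control and 46.1 CPM in treated somata. The oligodendrocyte lineage median was 158 and 126 CPM, and the neuronal median 8390 and 7730 CPM. The vascular and fibroblast median was higher in treated somata (283 and 374 CPM), and the astrocyte median was 8770 and 8750 CPM. The part of these cell types in the soma values was not tested.

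Other genes of force sensing and calcium handling, grouped by role, gave a measured surrounding to these values. Of 13 further candidate mechanosensitive channels tested in somata, 2 rose in treated cultures and none fell by edgeR. This was a smaller share than the 25.1% called over all genes. Trpm4, a calcium-activated sodium-permeable channel, went from 3.60 ± 0.907 to 6.09 ± 1.28 CPM (SD, n = 6 each; log2 fold change 0.72, SE 0.20, adjusted p = 0.0198). Lrrc8a, the core subunit of the volume-regulated anion channel, went from 33.6 ± 8.58 to 50.7 ± 6.52 CPM (0.56, SE 0.15, adjusted p = 0.0151). None of 5 channel partners and none of 9 other TRP channels passed. At an unadjusted p under 0.05 by edgeR there were 1 and 2 of them, smaller shares than the 6155 of all 15632 genes.

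Of 17 genes of store-operated calcium entry and calcium transport, 2 rose and 3 fell. Orai1, the pore of the store-operated channel, fell from 4.65 ± 2.37 to 1.51 ± 0.604 CPM, and its ranges did not overlap (log2 fold change -1.66, SE 0.32, adjusted p = 0.00480 by edgeR). Orai3, a related pore subunit, fell from 24.5 ± 5.54 to 17.2 ± 2.47 CPM (-0.56, adjusted p = 0.0173). Atp2b4, a calcium pump of the plasma membrane, rose by 0.56 (adjusted p = 0.0167), and Mcu, the mitochondrial calcium uniporter, by 0.46 (adjusted p = 0.0323) on the log2 scale. Of 21 calcium-dependent effectors, 2 rose and 4 fell. Camk2d, a calmodulin-dependent kinase subunit, rose by 0.79 (adjusted p = 0.0304) and Ppp3r1, the regulatory subunit of calcineurin, by 0.69 (adjusted p = 0.0214). Capn2, a calcium-activated protease, fell by 0.43 (adjusted p = 0.0241). The median log2 fold change was 0.00 for the other mechanosensitive channels, 0.17 for the calcium transport list and 0.02 for the effectors, against -0.03 over all genes. The shares called in the transport and effector lists were near the 25.1% of all genes. The 5 transport calls became 2 with offsets and the replicate block and 4 to 8 without single libraries (8 without control soma 4), and the 6 effector calls became 2 without a filter, 2 with offsets and block and 2 to 10 without single libraries (2 without control soma 5; 3 without control soma 1, 2 or 6 or treated soma 1, 5 or 8; 10 without control soma 4). Of the genes named here, Orai3, Atp2b4, Camk2d and Ppp3r1 did not pass with offsets for length and GC content, and none passed in the low-Eif2s3y libraries alone or in a fit of all 4 groups together. Leaving out single libraries ended the calls of Trpm4 (treated soma 1), Mcu (control soma 1, 5 or 6, treated soma 1, 2, 6 or 8), Capn2 (control soma 2, 5 or 6, treated soma 1, 4 or 5) and Camk2d (control soma 1, 5 or 6, treated soma 1, 2 or 8).

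For the 3 most abundant channels, the genes most alike across the 12 soma libraries were found by the root mean square difference of centred log2(CPM + 1) among 9283 genes. They were Adck1 (0.064) and Vps9d1 (0.065) for Tmem63b, Nap1l4 (0.057) and Tyw1 (0.061) for Trpv2, and Tmed4 (0.074) and Tada1 (0.075) for Trpm7. The median difference over all candidates was 0.267, 0.254 and 0.264. These are genes that varied little, as the channels did.

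In axons, the RNA of most single channels was above the floor in some libraries, often at high counts, and at or under it in the others. At least 1 channel was above the floor in every axonal library except control axon 2 and treated axon 1. Of 110 library values (10 genes in 11 libraries), 22 were above the floor, 12 of 50 in controls and 10 of 60 in treated axons. Of the 22, 14 were above the highest soma library of the same gene. The like count of values over all genes was not made. Of the 13916 genes with at least 1 CPM in somata, 25.8% to 59.1% were above the floor in single control axon libraries. In treated axon libraries the share was 18.8% to 60.4%. Piezo2 and Trpv4 were under that soma level. Tmem63b was above the floor in 6 of the 11 axonal libraries, Trpv2 in 5, Pkd2 in 4, Tmem63a in 3, Trpc1 in 2, Trpm7 and Tmem63c in 1 each, and Piezo1, Piezo2 and Trpv4 in none.

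Tmem63b had 1, 0, 0, 4736 and 762 counts in control axons 1, 2, 3, 5 and 7, which is 0.0556, 0, 0, 110 and 29.6 CPM. In treated axons 1, 2, 4, 5, 6 and 8 it had 0, 2893, 0, 18, 4332 and 1755 counts, or 0, 177, 0, 0.631, 226 and 88.8 CPM. Libraries without it and libraries near or above its soma level (119 to 159 CPM) stood side by side within both groups. Trpv2 had 0, 0, 0, 171 and 8773 counts in control axons (0, 0, 0, 3.97 and 341 CPM). In treated axons it had 0, 0, 0, 339, 13 and 1612 counts (0, 0, 0, 11.9, 0.677 and 81.5 CPM). Control axon 7 and treated axon 8 thus had a higher CPM of Trpv2 than any soma library, and 6 of 11 libraries held no count. CPM is a share of the counts of a library and not an amount of RNA.

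Pkd2 had 274, 0, 5165, 1756 and 0 counts in control axons (15.2, 0, 228, 40.8 and 0 CPM). In treated axons it had 1008 counts (51.0 CPM) in library 8 and none in the other 5. Tmem63a had 2768 counts in control axon 5 (64.3 CPM), 2617 in treated axon 4 (109 CPM) and 105 in treated axon 8 (5.31 CPM), and none elsewhere. Trpc1 had 204 counts in control axon 1 (11.4 CPM) and 1051 in control axon 5 (24.4 CPM), and none in the other 9. Each of these genes was therefore carried by a minority of libraries.

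Trpm7, below only Tmem63b and Trpv2 in control somata by level per length, had 1577 counts in control axon 1 (87.7 CPM) and 3 in treated axon 5 (0.105 CPM), and none in the other 9 axonal libraries. Tmem63c had 2846 counts in control axon 5 (66.1 CPM) and none in the other 10. Piezo2 had 1 count each in control axons 2 and 3 and treated axon 4. Piezo1 and Trpv4 had no count in any of the 11 axonal libraries. A count of 0 allows up to 0.0697 CPM in the deepest of these libraries and 0.183 CPM in the shallowest.

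**Figure D4:**
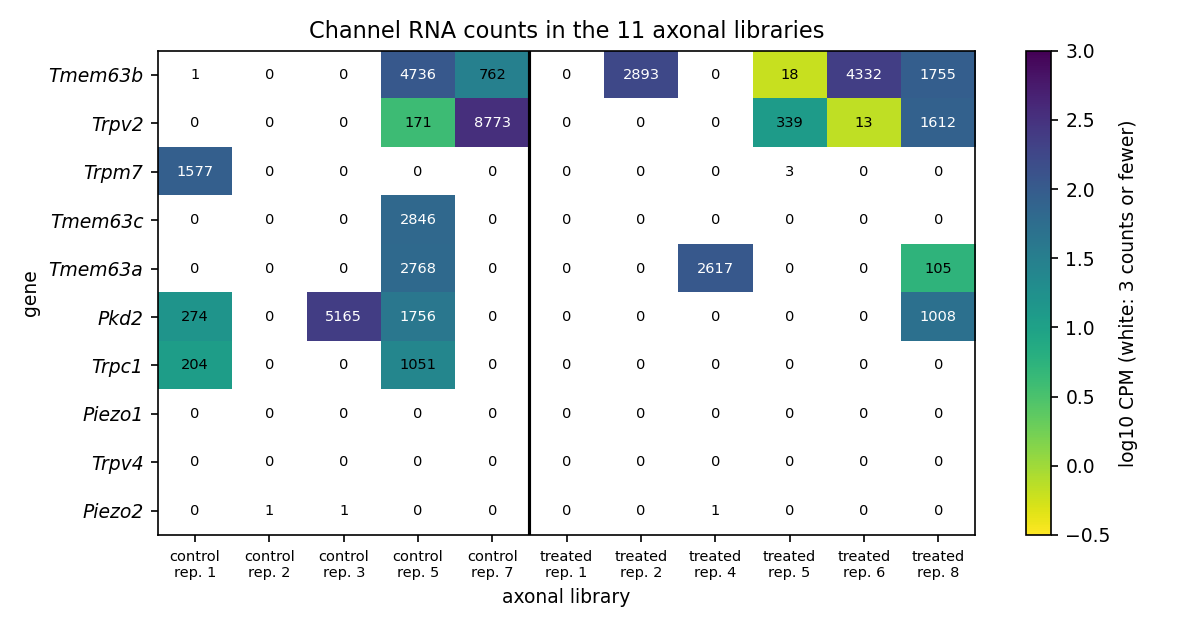
Counts (printed) and log10 CPM (colour; white for 3 counts or fewer) of each channel gene in the 11 axonal libraries, by replicate number within control and treated. Counts that exceed the floor of 3 are most frequent in control axon 5 (6 genes) and treated axon 8 (4 genes), and control axon 2 and treated axon 1 have none.

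Detection in axons followed the level in somata for genes in general, and the channels stood on both sides of that background. Genes of 10 to 100 CPM in somata were above the floor in 36.2% of axonal libraries on average, those of 100 to 1000 CPM in 72.1%, those of 1 to 10 CPM in 12.3% and those of 0.1 to 1 CPM in 6.22%. Trpv2, with 5 of 11 libraries, lay above the mean of its class, and Trpm7 and Tmem63c, with 1 each, below it. Tmem63b, with 6 of 11, lay below the mean of the 100 to 1000 CPM class, but its 136 CPM was near the lower end of that class. Pkd2, Tmem63a and Trpc1 lay above the mean of the 1 to 10 CPM class. The classes are wide and detection rose from class to class. The place of a gene within its class was not taken into account. Piezo1 was in no library, as were 40.0% of all genes of that class. Control axon 5 and treated axon 8, which held 6 and 4 of the channels, were also the libraries with the most genes in all, at 59.1% and 60.4% of 13916 genes above the floor, against 18.8% to 41.2% in the other 9. The pattern of many empty libraries with a peak above every soma library was common: 6 of the 10 channels had it, as did 47.8% of all genes of 1 to 10 CPM, 59.3% of those of 10 to 100 CPM and 12.5% of those of 100 to 1000 CPM.

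**Figure D5:**
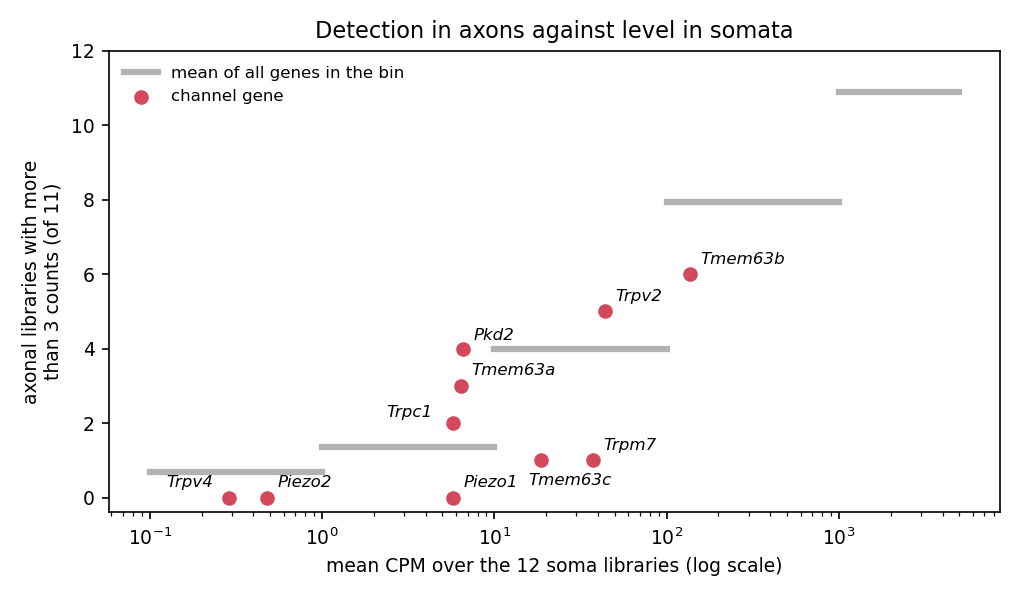
Number of axonal libraries, of 11, with more than 3 counts of each channel gene against its mean CPM over the 12 soma libraries (log scale); grey bars are the mean over all genes of that level. Tmem63b (6 libraries) and Trpv2 (5) were detected most often, and Trpm7 and Tmem63c (1 each) lie below the bar of their class.

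The second comparison asked whether the gradient changed channel RNA in axons. Only Trpv2 and Tmem63b had enough counts to be tested, and neither passed, nor did any of the 4947 genes tested by edgeR (0%). Of these, 46 had an unadjusted p under 0.05, none of them a channel. DESeq2 called 18 genes and limma voom 9. Trpv2 had a log2 fold change of -1.92 (SE 3.02, 95% interval -8.76 to 4.92, adjusted p = 1.00 by edgeR), and without control axon 7 it was 3.91. Tmem63b had 1.37 (SE 2.83, 95% interval -5.04 to 7.78, adjusted p = 1.00). The biological coefficient of variation was 2.39 in this fit against 0.24 in somata, and both intervals span changes of many fold in either direction.

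The third comparison set axons against somata without the gradient. Of 8 channels tested, Piezo1 was lower in control axons and none was higher by edgeR, while 35.3% of 14728 genes were called (34.4% lower and 0.856% higher). Piezo1 went from 3.35 to 6.25 CPM in control somata to no count in 5 axonal libraries (adjusted p = 5.86e-06 by edgeR). Against the mean floor of 0.127 CPM per library it was at least 38.5-fold lower, a bound for counting error only. All 3995 tested genes without a count in control axons were called lower, so the call of Piezo1 adds nothing to its missing counts. The other 7 had adjusted p values from 0.320 (Pkd2) to 0.957 (Trpv2), with SE of log2 fold changes between 1.71 and 2.32. Without control axon 1, Trpm7 passed too (-13.04), and without control axon 5, Tmem63a (-10.55) and Tmem63c (-11.87) did, those libraries holding all the control axon counts of these genes. With limma voom, 6 of the 8 passed, as did most of all genes tested. Piezo2, with 2 counts in the axons and 71 in the somata, had a soma-to-axon ratio of 31.5 (95% exact interval 8.40 to 265, counting error only), and it was too scarce for the fit. Trpv4 was at or near the floor on both sides, so no fold is given.

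With the gradient, 4 of the 8 channels tested were lower in axons, Piezo1, Trpc1, Trpm7 and Tmem63c, and none was higher, against 29.3% of 14466 genes called (28.4% lower and 0.843% higher). Tmem63c had 17.0 to 21.5 CPM in treated somata and no count in treated axons, at least 135-fold lower (adjusted p = 1.82e-05 by edgeR). This bound and those that follow cover counting error only. In control axon 5 Tmem63c had 2846 counts, and in every other axonal library none. Of all genes of 10 to 100 CPM in somata, 59.3% had many empty axonal libraries and a peak above every soma library. Piezo1 was at least 47.8-fold lower (adjusted p = 1.87e-06 by edgeR) and Trpc1 at least 47.1-fold lower (adjusted p = 2.21e-06), both with no count in the 6 treated axons. All 3172 tested genes without a count in treated axons were called lower, so the calls of Tmem63c, Piezo1 and Trpc1 add nothing to their missing counts. Trpm7 had 3 counts in treated axons against 5727 in treated somata (adjusted p = 0.000112 by edgeR). The ratio at equal depth was 1660 (95% exact interval 566 to 8030). That interval covers counting error only and leaves out the spread between libraries, and control axon 1 held 1577 counts of Trpm7. Trpv2, Tmem63a, Tmem63b and Pkd2 had adjusted p values of 0.755 to 0.999. Piezo2 had 1 count against 71, a ratio of 61.6 (95% exact interval 10.7 to 2470, counting error only). The median log2 fold change of axon over soma was -0.07 over the 8 channels in controls (all genes -1.40) and -6.15 in treated cultures (all genes -1.13), or -3.64 with the channels without an axonal count at their bound. Trpc1, Trpm7 and Tmem63c passed in treated and not in control cultures, where their axonal counts came from libraries 1 and 5. Whether the compartments differed in their response to the gradient was not tested. With limma voom all 8 passed in treated cultures, where most of all genes tested passed as well.

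The same lists in axons against somata gave calls almost all in the lower direction, as did all genes. In control cultures 34.4% of all genes tested were lower and 0.856% higher. The folds below are bounds for counting error only, and every tested gene without an axonal count was called lower. In control cultures 5 of 12 other candidate mechanosensitive channels were lower, with Trpc5, a calcium-permeable channel of growth cones, at least 61.7-fold lower and Kcnk4, a stretch-sensitive potassium channel, at least 35.5-fold lower. Of 5 partners, 2 were lower, Tmem150c (at least 190-fold) and Mdfi (at least 44.6-fold). Of 6 other TRP channels, 3 were lower, Trpm2 (at least 64.8-fold) and Trpv6 (at least 15.7-fold) among them. Of 17 calcium transport genes, 7 were lower, Atp2b4 (at least 91.6-fold) and the release channel Ryr2 (at least 42.2-fold) among them. Of 21 effectors, 5 were lower, including the kinase Prkcb (at least 180-fold) and the transcription factor Nfatc2 (at least 26.1-fold), and Calm2 was higher (log2 fold change 0.37, SE 0.13, adjusted p = 0.0435 by edgeR). The Calm2 call was lost under 14 of 19 alternatives, among them leaving out control axon 2, 3 or 7 or any single control soma library (adjusted p 0.0570 to 0.0986), and Nfatc2 did not pass with limma voom (adjusted p = 0.141). The 3 calls among other TRP channels became 6 to 8 when any 1 control axon was left out, and without control axon 5 there were 8 calls among other mechanosensitive channels and 10 among effectors. With limma voom the calls, in the order given, were 10, 4, 4, 15 and 11, and the calls over all genes rose as well.

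In treated cultures 28.4% of all genes tested were lower and 0.843% higher. Of 12 other candidate mechanosensitive channels, 5 were lower, with Trpc5 at least 67.0-fold and the acid-sensing channel Asic1 at least 61.9-fold lower. These folds too are bounds for counting error only. Of 5 partners, 2 were lower, Tmem150c (at least 183-fold) and Mdfic (at least 13.5-fold; adjusted p = 0.164 with limma voom). Of 6 other TRP channels, 2 were lower, Trpv6 (at least 20.1-fold) and Trpm2, which had 1 count in axons. The Trpm2 ratio was 1520 (95% exact interval 273 to 60100, counting error only). Of 17 calcium transport genes, 3 were lower, Atp2b4 (at least 126-fold) and the release channel Ryr3 (at least 80.7-fold) among them, and of 21 effectors 6 were lower, with the kinase Camkk1 at least 653-fold and Nfatc2 at least 30.8-fold lower. With limma voom these calls, in the same order, were 10, 4, 4, 12 and 15. With the replicate block, which like limma voom called more of all genes, the first 4 lists had 9, 4, 4 and 10. Without treated axon 8 they had 8, 4, 4 and 7, and without treated axon 4 the other TRP channels had 4. By edgeR no gene of these lists passed in treated against control axons, where 22 of their 77 genes had enough counts to be tested (none at an unadjusted p under 0.05, and none with DESeq2 or limma voom), whereas the fit of all 4 groups called 4, 2, 1, 5 and 3.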

How the data were processed

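Soma and axonal lysates were turned into amplified poly(A) cDNA libraries that carry molecular identifiers and were read from both ends, per the labels' protocols. The authors deposited whole-number counts per Ensembl gene for 23 libraries. Per the submitters' processing notes the tools were FastQC 0.11.9, fastp 0.20.1, STAR 2.7.08a, HTSeq 0.13.5 and MultiQC 1.12, with build mm10. The gene annotation, the strand setting and any use of the identifiers are not given in the sources used here. Lines that name no gene were left out of library totals: reads in no gene were 3.18% to 7.94% of all counted, ambiguous, multiply aligned and no-gene reads together, ambiguous reads 4.37% to 5.94% and reads with several alignments 5.43% to 13.42%.

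Symbols were found for 55141 of 55487 IDs, and longest transcripts, GC content and coordinates came from GENCODE M21 (GRCm38). Each comparison used only the libraries of its 2 groups and was fitted with edgeR 4.0.16 in R 4.3.3 (filterByExpr, TMM normalization, robust quasi-likelihood F test, Benjamini-Hochberg adjustment over all genes tested, threshold 0.05). The SE is the log2 fold change divided by the square root of F, and 95% intervals use the t quantile. Folds against groups without a count are bounds at the mean floor of 3 counts per library, and floors and exact intervals cover counting error only. The fits were tested on simulated data. Alternatives used DESeq2 1.42.0, limma 3.58.1 (voom), mgcv 1.9.3 offsets, other filters and scalings, other sets of libraries and each library left out in turn. All 10 channels are named. Of 5 lists of other genes, the 2 highest and 2 lowest log2 fold changes among those past the threshold are named, except 1 gene that is not reported here. The channels and lists were chosen with earlier results of these data known. Within each group, no 2 libraries held identical counts or differed by as little as sampling noise; pairs across groups were not compared.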

Additional observations from a re-analysis of the deposited data

Results flagged for a closer look

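In 12 of the groups of library values of these channels, 1 library stood apart from the rest by Dixon's criterion; chance marks about 1 group in 20, and the axonal groups are mostly at 0, where any detected library stands apart. In control axons these were Trpv2 in library 7 (341 CPM, the next 3.97), Trpm7 in library 1 (87.7 CPM, the others 0), Tmem63a in library 5 (64.3 CPM, the others 0), Tmem63b in library 5 (110 CPM, the next 29.6), Tmem63c in library 5 (66.1 CPM, the others 0) and Pkd2 in library 3 (228 CPM, the next 40.8). In treated axons they were Trpv2 in library 8 (81.5 CPM, the next 11.9), Tmem63a in library 4 (109 CPM, the next 5.31), Pkd2 in library 8 (51.0 CPM, the others 0), Trpm7 in library 5 (0.105 CPM, which is 3 counts) and Piezo2 in library 4 (0.0417 CPM, which is 1 count). In treated somata it was Trpc1 in library 4 (9.02 CPM, the next 6.51).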

How the results depend on the processing

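Between axons 2 channels had enough counts to be tested, and single libraries decided several values against somata. In somata the number of channels past the threshold, 0, was 1 with a filter of a mean of 1 CPM, with DESeq2, without both libraries numbered 4, with length and GC offsets (Trpm7), with these offsets and the replicate block (Trpm7) and in the high-Eif2s3y libraries alone (Piezo1). It was 2 with limma voom and with the Eif2s3y split as a covariate, and 0 to 2 when single libraries were left out, the 2 without control soma 4. The fits of each Eif2s3y set alone were added after seeing the data. Over all genes, 3929 calls became 2467 with the offsets, 2029 with the offsets and the replicate block, and 0 both in a fit of all 4 groups (262 genes at an unadjusted p under 0.05) and in the low-Eif2s3y libraries (2739); leaving out single libraries gave 2666 to 6072, the highest without control soma 4. In axons the count over all genes, 0, was 18 with DESeq2, 9 with limma voom and 3870 in the fit of all 4 groups, which called 3 channels; it was 0 without any single library. In control axons against somata the channels called, 1, were 3 without a filter, 6 with limma voom, 2 in the fit of all 4 groups and 1 to 3 without single libraries (2 without control axon 1, 3 without control axon 5), and the 5196 genes were 10714 without a filter, 9912 with limma voom and 4542 to 8151 without single libraries (highest without control axon 5). In treated cultures the 4 channels were 8 with limma voom and 4 to 5 without single libraries, and the 4234 genes were 10931 without a filter, 10203 with limma voom, 7687 with the replicate block and 4174 to 6499 without single libraries (highest without treated axon 8). The cause of these shifts was not tested.

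Same-numbered soma libraries deviated together on average (correlation 0.189, 0.091 to 0.233 over 5 pairs, 1 of them best with its own number), but not in every pair over 0.1, and the other comparisons gave means of 0.04, 0.05 and 0.005, so the numbers were not taken to pair the libraries. With the replicate block 0 channels passed in somata (Piezo1 0.42, Tmem63b -0.20). The block turned Trpv2 (0.80) and Tmem63b (-3.07) between axons, Trpv2 (-11.47), Trpc1 (-3.18) and Tmem63a (-8.91) in control axons against somata, and Tmem63a (-7.86) and Pkd2 (-9.69) in treated ones.

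Other log2 fold changes that turned sign, none of them called in the fits of the report, were as follows. In somata Tmem63c was 0.026 with total counts, 0.013 without a filter, 0.028 with limma voom, 0.10 in the fit of all 4 groups, 0.040 without libraries numbered 4, 0.01 with offsets and block, 0.239 in the high-Eif2s3y libraries and -0.066 to 0.041 without single libraries. Piezo2 was 0.044 in the fit of all 4 groups, 0.067 without libraries numbered 4 and -0.46 to 0.11 without single libraries. Trpv2 (0.056) and Trpm7 (0.022) turned in the fit of all 4 groups, Trpm7 also in the low-Eif2s3y libraries (0.018), and Pkd2 with offsets (-0.001). Between axons Trpv2 was 2.87 with limma voom and -2.21 to 3.91 without single libraries, of which 8 left it testable. In control axons against somata limma voom gave -7.02 for Trpv2, -4.70 for Trpc1, -7.41 for Tmem63a and -1.97 for Pkd2, and leaving out single libraries gave -5.50 to 0.70 for Trpv2, -1.20 to 0.70 for Trpc1 and -10.55 to 1.08 for Tmem63a. In treated ones Pkd2 was -0.085 with DESeq2 and with its size factors, -0.034 without a filter, -0.007 with a mean of 1 CPM, -7.24 with limma voom, -0.012 in the fit of all 4 groups and -10.72 to 0.28 without single libraries, and Tmem63a was -5.09 with limma voom and -2.57 to 1.62 without single libraries. In somata 197 of 233 alternative values of single channels kept their direction and side of the threshold, 13 passed it and 23 turned.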
